A study of Mus musculus with 8 samples.

Results

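The receptors described here are the 8 G protein-coupled receptors at which opioid, cannabinoid and alpha-2 adrenergic pain-relieving drugs act. They are the opioid receptors Oprm1, Oprd1 and Oprk1, the nociceptin receptor Oprl1, the cannabinoid receptor Cnr1 and the alpha-2 adrenergic receptors Adra2a, Adra2b and Adra2c. Members were taken by gene symbol and were chosen with earlier results of these data known. Each symbol matched 1 of the 40800 gene identifiers in the deposited table. RNA sequencing was done on dorsal root ganglia, which lie along the spinal cord and house the sensory neurons of skin, muscle and viscera, from 8 mice aged 6 months. The wild-type group was 4 C57BL/6 mice, and the mutant group was 4 mice on that background that carried a gene trap in both copies of Tmem184b. In such an allele an inserted cassette splices to an early exon and truncates the transcript, and no Cre or cell type restriction is named in the labels. The labels do not state the sex of the mice. Samples are called by genotype and label number, wild types 1, 3, 4 and 8 and mutants 1, 2, 3 and 4.

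All 8 receptors signal mainly through inhibitory G proteins of the Gi/o class. When an agonist binds, the alpha subunit lowers adenylyl cyclase activity, and the freed beta-gamma subunits hold back presynaptic calcium channels and can open inwardly rectifying potassium channels, so that a sensory neuron releases less transmitter. In dorsal root ganglia this is the peripheral and primary afferent arm of opioid, cannabinoid and clonidine analgesia. The endogenous ligands are enkephalins, endorphins and dynorphins for the opioid receptors, nociceptin for Oprl1, lipid endocannabinoids for Cnr1 and noradrenaline for the alpha-2 receptors.

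Libraries held 6298533 to 7983821 reads in wild type and 6183618 to 6992793 in the mutant, and values are in CPM, a library's reads for a gene scaled to a common total, where 1 read was worth 0.125 to 0.162 CPM. Tmem184b, the trapped gene, lay between 7.36 and 7.51 log2 CPM in wild types and between 2.47 and 3.10 in mutants, a log2 difference of -4.64 (SE 0.11; limma adjusted p = 2.57e-12), so each library matched its genotype label. Neuronal genes fixed as tissue markers were present, with all 9 pan-neuronal genes tested and summed levels of 8634 to 9642 CPM in wild types and 8744 to 9447 CPM in mutants. Single genes of this list moved both ways beneath the sums, with 3 of 9 at an unadjusted p under 0.05 in limma. Syt1 was called lower (-0.25, limma adjusted p = 0.0146). Without a call, all mutants were below all wild types for Rbfox3 (-0.26) and above them for Snap25 (0.22). Markers of sympathetic neurons came to sums of 1.04 to 3.81 CPM in wild types and 1.57 to 2.43 CPM in mutants, with Phox2a at 0 reads in every library. Across all genes, 820 of 15030 tested passed the limma test at an adjusted p under 0.05. Of these 423 rose and 397 fell, a split that became 204 and 706 when each sample was centred on its median, and the median log2 difference of all genes tested was 0.066.

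Of the 8 receptors, 1 passed the test. Cnr1 rose in the mutant, and Oprl1 was higher in every mutant than in any wild type without passing it. The other 6 receptors had groups that overlapped, among them Oprm1, the receptor with the highest mean level per length in wild type. All 8 receptors were above the filter on low values, which asks for a log2 CPM above 0 in at least 4 of the 8 samples. The call was made for 5.46% of all genes tested (2.81% in the higher direction), beside 1 of the 8 receptors. Groups did not overlap for 12.4% of genes tested (7.5% with the mutant higher), beside 2 receptors, and an unadjusted p under 0.05 was found for 21.3% of genes, beside 3 receptors (Cnr1, Oprl1 and Oprm1). Over so few members these counts lie near the background. Differences were positive for 4 receptors and negative for 4, with a median of 0.016 on the log2 scale beside 0.066 for all genes tested. In bulk ganglia, fewer cells of a type and less RNA per cell cannot be told apart, and this holds for each difference given here.

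**Figure D1:**
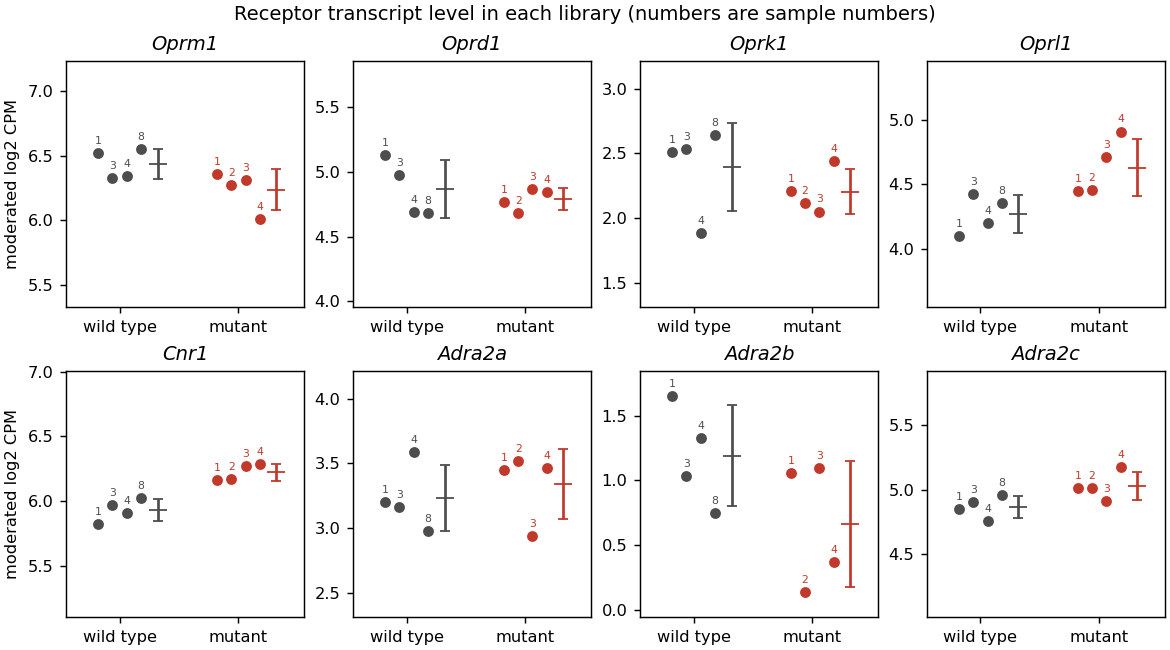
Moderated log2 CPM (vertical axes, each spanning the same number of log2 units) of the 8 receptor transcripts in each library, with wild types in grey and mutants in red, the sample number above each point, and the mean and SD of 4 mice beside the points. For Cnr1 and Oprl1 all 4 mutants lie above all 4 wild types, and in the other 6 panels the genotypes overlap.

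The sequences upstream of Cnr1 and Oprl1 are shown because these were the receptors whose genotypes did not overlap, and Oprm1 is set beside them as the receptor with the highest wild-type mean. Each is the 250 bases before the most upstream RefSeq start of the gene, from the RefSeq tables on GRCm38.p6, 5′ to 3′ on the gene's strand. RefSeq promoters were matched by symbol for 7 of the 8 receptors, the exception being Oprk1. Capitals mark matches, on either strand, to the GC box GGGCGG or the TATA box TATAAA. The intervals are chr4:33924014-33924263 for Cnr1, chr2:181714766-181715015 for Oprl1 and chr10:6758343-6758592 for Oprm1, all on the plus strand.
Cnr1: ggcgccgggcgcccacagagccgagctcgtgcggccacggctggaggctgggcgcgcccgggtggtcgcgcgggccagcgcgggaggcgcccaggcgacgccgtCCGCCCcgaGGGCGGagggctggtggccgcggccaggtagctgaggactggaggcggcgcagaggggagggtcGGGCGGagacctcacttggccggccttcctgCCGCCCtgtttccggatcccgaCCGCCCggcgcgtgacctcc
Oprl1: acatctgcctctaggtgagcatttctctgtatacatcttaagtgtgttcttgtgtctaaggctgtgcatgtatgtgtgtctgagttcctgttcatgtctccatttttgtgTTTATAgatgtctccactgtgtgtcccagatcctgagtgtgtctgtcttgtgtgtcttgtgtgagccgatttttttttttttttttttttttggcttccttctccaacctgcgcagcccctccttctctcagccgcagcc
Oprm1: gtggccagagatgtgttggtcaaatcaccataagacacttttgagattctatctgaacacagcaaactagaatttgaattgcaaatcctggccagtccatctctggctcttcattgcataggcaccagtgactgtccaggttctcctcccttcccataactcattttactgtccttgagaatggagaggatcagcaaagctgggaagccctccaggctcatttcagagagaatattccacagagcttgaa

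These upstream windows differ in base composition. The Cnr1 window is 79.2% G or C with 36 CpG dinucleotides and 5 GC box matches, and the Oprl1 window is 44.4% G or C with 3 CpG dinucleotides, no GC box and 1 TATA box match, on the opposite strand. The Oprm1 window is 45.6% G or C with 0 CpG dinucleotides and no match to any motif searched. Over 27025 genes with such a window, the median was 52.0% G or C and 6 CpG dinucleotides, a GC box was present in 33.0% and a TATA box in 13.0%. The cAMP response element half-site TGACG, found in 17.8% of windows, and the CCAAT box CCAAT, found in 34.5%, were searched as well and were in none of the 3 windows. A match is a description of the letters, and the RefSeq start of Cnr1 used here lies upstream of the GENCODE start of the gene, while the Oprm1 window extends past the GENCODE start, so its end lies inside the annotated gene.

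Cnr1 encodes the cannabinoid receptor of neurons, which binds anandamide and related lipids as well as tetrahydrocannabinol. The gene (ENSMUSG00000044288) lies on chromosome 4 at 33924593 to 33948831, plus strand, in GRCm38. On the moderated log2 CPM scale wild types 1, 3, 4 and 8 measured 5.82, 5.97, 5.91 and 6.02, and mutants 1 to 4 measured 6.16, 6.17, 6.27 and 6.28. The lowest mutant was above the highest wild type. From 355 to 512 reads per wild-type library and 443 to 543 per mutant library, wild types averaged 60.8 ± 3.56 CPM and mutants 74.4 ± 3.36 CPM (SD, n = 4 each). The log2 difference was 0.29 (SE 0.066; limma adjusted p = 0.020), a 1.22-fold rise with a 95% interval of 1.11 to 1.35, with an exact permutation p of 0.0286 (two-sided), the smallest that 4 against 4 allow. The call was lost when each sample was centred on its median (0.20; adjusted p = 0.120), with the GC trend removed (0.22; 0.0625), without the mean-variance trend (0.29; 0.0960), without wild type 1 (0.26; 0.0714) and without mutant 4 (0.27; 0.0513). It was kept when the mean of the pan-neuronal genes was subtracted in each sample, at 0.34 (limma adjusted p = 0.0109). That subtraction takes the same value from every gene of a sample. It moved the median log2 difference of all genes tested from 0.066 to 0.115, so it favours calls in the higher direction.

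Oprl1 encodes the nociceptin receptor, the opioid-like receptor that does not bind classical opioids such as morphine. The gene (ENSMUSG00000027584) lies on chromosome 2 at 181715016 to 181720985, plus strand. Wild types 1, 3, 4 and 8 measured 4.10, 4.42, 4.20 and 4.36 log2 CPM, while mutants 1 to 4 measured 4.45, 4.46, 4.71 and 4.91. The groups did not overlap, although mutants 1 and 2 lay close above wild type 3. Wild types averaged 19.1 ± 1.97 CPM and mutants 24.7 ± 3.92 CPM (SD, n = 4 each), from 106 to 169 and 134 to 208 reads. The log2 difference was 0.36 (SE 0.12) and was not called (limma adjusted p = 0.0920; exact two-sided permutation p = 0.0286), with a 95% interval of 0.11 to 0.61. It passed the threshold in 1 of 23 alternatives, with pan-neuronal content subtracted (0.41, limma adjusted p = 0.0467), a setting that raised the median of all genes tested to 0.115. Without mutant 4 it was 0.27 (limma adjusted p = 0.248).

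Xist, the transcript that marks an inactive X chromosome, was near its floor in wild type 3 and mutants 3 and 4, at 2, 4 and 7 reads, and at 1615 to 1902 reads in the other 5 libraries. These 3 libraries with little Xist held the highest Oprl1 value of the wild types and the top values of Oprl1 and Cnr1 among the mutants. Among the libraries with high Xist, 3 wild types and 2 mutants, the mean log2 difference was 0.25 for Cnr1 and 0.23 for Oprl1, and among the 3 with low Xist it was 0.31 for Cnr1 and 0.39 for Oprl1. Differences within these sets were not tested, and wild type 3 was the only wild type with low Xist. For both genes all mutants lay above all wild types over the whole set of libraries. The same order within each set follows from this and is no separate result. With Xist as a covariate the difference was 0.27 for Cnr1 (limma adjusted p = 0.0298) and 0.31 for Oprl1 (limma adjusted p = 0.10).

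Oprm1 encodes the mu opioid receptor, the main target of morphine and fentanyl. The gene (ENSMUSG00000000766) spans chromosome 10 from 6758506 to 7038198, plus strand, and shares 96 exonic bases with Ipcef1 on the other strand, where counting of strand is not given in the sources used here. Wild types 1, 3, 4 and 8 had log2 CPM values of 6.52, 6.33, 6.34 and 6.55, against 6.36, 6.27, 6.31 and 6.01 in mutants 1 to 4. Mutant 4 was the lowest of all libraries, and mutant 1 lay within the wild-type range. Wild types averaged 86.5 ± 6.98 CPM and mutants 75.5 ± 7.77 CPM (SD, n = 4 each), from 449 to 740 reads per library. The log2 difference was -0.20 (SE 0.083) and was not called (limma adjusted p = 0.181; exact two-sided permutation p = 0.0857), with a 95% interval of -0.37 to -0.021. Without mutant 4 it was -0.12 (limma adjusted p = 0.416), and with median centring -0.29 (limma adjusted p = 0.0787).

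Mutant 4 also had the lowest summed level of the NP1 markers, which label nonpeptidergic nociceptors. That sum was 1170 CPM in mutant 4, 1324 to 1743 CPM in the other mutants and 2188 to 2414 CPM in the wild types, and all 7 of its genes fell. The summed NP3 itch neuron markers were at 672 to 720 CPM in wild types and 458 to 500 CPM in mutants. Of the 8 NP3 genes, 7 were called lower. Jak1 held most of that sum, at means of 544 and 439 CPM, a change of -19.3%. The other called NP3 genes changed by -57.1% (Htr1f) to -98.8% (Nppb) in mean CPM. The NP2 itch neuron markers summed to 237 to 302 and 211 to 235 CPM, with 2 of 4 called lower. Most of the NP2 sum was Gfra1, at means of 191 and 178 CPM, while the called Mrgpra3 and Mrgprx1 changed by -44.5% and -43.0%. Peptidergic nociceptor markers gave sums of 1344 to 1424 CPM in wild types and 1266 to 1438 CPM in mutants, with 0 of 7 called by limma or voom and 1 of 7 at an unadjusted p under 0.05 in limma. Calca was the largest part of that sum, at means of 675 and 676 CPM. Trpv1 changed by -19.3% (limma adjusted p = 0.0579), with 3 of 4 mutants below all wild types, and 3 of the 7 genes had a difference above 0. Large neurofilament neuron markers gave sums of 8391 to 9704 and 9271 to 10595 CPM, with 1 of 9 called higher. Mutant 4 also had the lowest sum of C low-threshold mechanoreceptor markers (1201 CPM). Piezo2 held most of that sum, at means of 1199 CPM in wild types and 1052 CPM in mutants. Limma called 0 of the 5 tested genes of that list, with 2 at an unadjusted p under 0.05. The highest sums for satellite glia (2794 CPM), immune cells (105 CPM), red blood cells (124 CPM) and skeletal muscle (157 CPM, against 3.81 to 46.1 CPM in the other 7 libraries) were in mutant 4 as well. The skeletal muscle list had a median log2 difference of 1.63 with 6 of 6 tested genes above 0, of which limma and voom called 0 and 4 had an unadjusted p under 0.05 in limma. The part of these shifts in the receptor values was not tested.

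Oprd1 and Oprk1 complete the classical opioid receptors. Oprd1 (ENSMUSG00000050511; chromosome 4, 132110726 to 132144486, minus strand) encodes the delta receptor for enkephalins and measured 4.76, 4.68, 4.87 and 4.85 log2 CPM in mutants 1 to 4, with wild types 1, 3, 4 and 8 at 5.13, 4.98, 4.69 and 4.68. The mutants lay inside the range of the wild types, mutant 2 at its lower edge. The log2 difference was -0.079 (95% interval -0.31 to 0.15; limma adjusted p = 0.723), and it was 0.0084 without wild type 1. Oprk1 (ENSMUSG00000025905; chromosome 1, 5588466 to 5606131, plus strand) encodes the kappa receptor for dynorphins and measured 2.21, 2.12, 2.05 and 2.44 in mutants 1 to 4, with wild types 1, 3, 4 and 8 at 2.51, 2.54, 1.89 and 2.64. Wild type 4 was the lowest library, and the mutants again lay inside the wild-type range. With 23 to 47 reads per library, its log2 difference of -0.19 had a wide 95% interval, -0.61 to 0.23 (limma adjusted p = 0.632). Leaving out wild type 4 gave -0.36, leaving out wild type 8 gave -0.11, and the value was -0.077 over the 6 samples with shared label numbers.

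The alpha-2 adrenergic receptors bind noradrenaline and the analgesic clonidine, and the 3 genes were each annotated as a single exon block. Adra2c (ENSMUSG00000045318; chromosome 5, 35278319 to 35281763, plus strand) was the most abundant of them. Wild types 1, 3, 4 and 8 stood at 4.85, 4.91, 4.76 and 4.96 log2 CPM, with mutants 1 to 4 at 5.01, 5.01, 4.91 and 5.17. Mutants 1, 2 and 4 were above all wild types, and mutant 3 was not. The log2 difference was 0.16 (SE 0.084; 95% interval -0.021 to 0.34) and was not called (limma adjusted p = 0.30; exact two-sided permutation p = 0.0571). With median centring it was 0.067 (limma adjusted p = 0.733).

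Adra2a (ENSMUSG00000033717; chromosome 19, 54044151 to 54048982, plus strand) had log2 CPM values of 3.20, 3.16, 3.58 and 2.98 in wild types 1, 3, 4 and 8, with mutants 1 to 4 at 3.45, 3.52, 2.94 and 3.46. The highest library was a wild type and the lowest a mutant. The log2 difference was 0.11 (95% interval -0.24 to 0.47; limma adjusted p = 0.752), and it was -0.031 over the 6 samples whose label numbers the genotypes share. Wild type 4, the highest in Adra2a, also had the highest summed fibroblast markers, 1222 CPM, and mutant 3, the lowest in Adra2a, had the lowest such sum of the mutants, 794 CPM. The same libraries were highest of the wild types and lowest of the mutants for immune markers, at 78.4 and 61.0 CPM, and endothelial markers, at 95.9 and 67.6 CPM. The order of the other libraries differed, since the fibroblast sum of the mutants was highest in mutant 4 (1177 CPM) and Adra2a in mutant 2. The part of these cells in the Adra2a values was not tested.

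Adra2b (ENSMUSG00000058620; chromosome 2, 127363208 to 127367221, plus strand) had the fewest reads of the receptors, with 11 to 18 per wild type and 5 to 12 per mutant. Its log2 CPM in mutants 1 to 4 was 1.06, 0.13, 1.10 and 0.37, beside 1.65, 1.03, 1.33 and 0.75 in wild types 1, 3, 4 and 8. Mutants 2 and 4 were below all wild types and mutants 1 and 3 were within their range. The log2 difference of -0.53 had a 95% interval of -1.17 to 0.11 and was not called (limma adjusted p = 0.336; exact two-sided permutation p = 0.200).

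**Figure D2:**
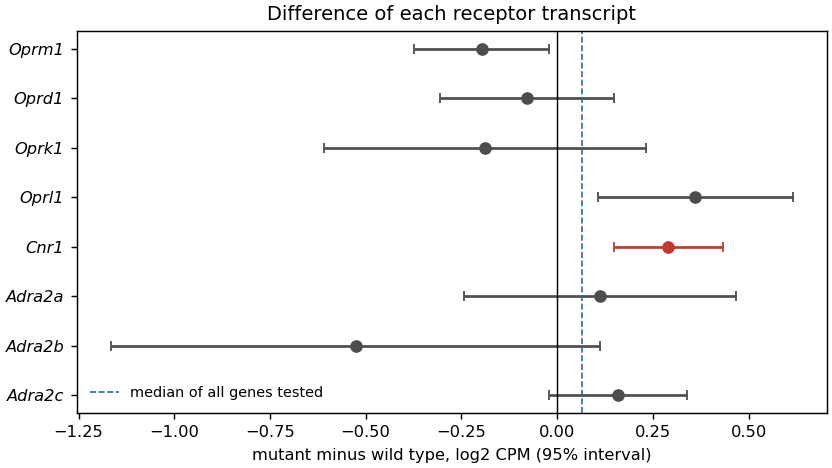
Mutant minus wild type difference in moderated log2 CPM (horizontal axis) for the 8 receptors, with limma 95% intervals over 4 mice per genotype; red marks the receptor with an adjusted p under 0.05 and the dashed line the median of all genes tested, 0.066. Cnr1 is at 0.29 and Oprl1 at 0.36, and the interval of Adra2b, the receptor with the fewest reads, is the widest, from -1.17 to 0.11.

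Levels were compared between receptors per kilobase of annotated exon. The union of all annotated exons can exceed the transcripts in use, above all for Oprm1, which has 22 exon blocks. In wild type the mean was 10.8 ± 0.87 CPM per kilobase for Oprm1, 9.44 ± 0.55 for Cnr1, 8.41 ± 0.49 for Adra2c, 7.26 ± 1.14 for Oprd1, 5.08 ± 0.53 for Oprl1, 1.90 ± 0.36 for Adra2a, 0.553 ± 0.123 for Oprk1 and 0.512 ± 0.158 for Adra2b (SD, n = 4). Neighbours in this order overlapped across libraries from Oprm1 to Oprd1 and between Oprk1 and Adra2b, and did not overlap between Oprd1, Oprl1, Adra2a and Oprk1. In the mutant Cnr1 came first, at 11.5 ± 0.52 CPM per kilobase, above Adra2c at 9.41 ± 0.71 and Oprm1 at 9.40 ± 0.97 (SD, n = 4), with the lowest Cnr1 library at 11.1 and the highest Adra2c and Oprm1 libraries at 10.4 and 10.1. Oprd1 and Oprl1, at 6.82 ± 0.40 and 6.58 ± 1.05 CPM per kilobase (SD, n = 4), overlapped in the mutant.

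The balance of receptors within a library is free of library scaling and of gene length when the genotypes are compared. The log2 ratio of Oprm1 to Cnr1 lay between 0.36 and 0.70 in wild types and between -0.27 and 0.19 in mutants, so the mean log2 ratio went from 0.50 to 0.016. The log2 ratio of Oprd1 to Cnr1 lay between -1.34 and -0.69 in wild types and between -1.49 and -1.40 in mutants, and that of Oprm1 to Adra2c between 1.42 and 1.67 and between 0.84 and 1.40. Oprd1 to Oprl1 was the other pair of the 28 whose genotypes did not overlap, at 0.32 to 1.03 in wild types and -0.063 to 0.32 in mutants, ranges that meet closely at their edge. These 4 pairs are 14.3% of the 28, which reuse the same 8 receptors. Groups did not overlap for 12.4% of single genes, but the share over all gene pairs was not computed. The Oprl1 to Cnr1 ratio overlapped, between -1.73 and -1.55 in wild types and between -1.72 and -1.38 in mutants. These ratios are given as a description, since Cnr1 and Oprl1 drew attention by their own differences.

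Patterns across mice were compared after the mean of each genotype was removed, over the 8 samples and 15030 tested genes. The 3 genes most like Cnr1 were C77370, Pex5l and Ndufa3 (Pearson r of 0.99, 0.98 and 0.98), and those most like Oprl1 were Tpd52l1, Ccdc122 and Rbbp9 (0.99, 0.99 and 0.98). For Oprm1 they were Efna2, Arhgef18 and Ctxn1, and for Adra2a Btbd11, Mpzl2 and Htra3. No gene of the receptor set was among the 3 most like another, and 26 to 130 genes had an r over 0.9 with a given receptor. With 8 points that share library depth and composition, high values of r arise for many genes, so these are descriptions of likeness alone.

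The genes that make, receive and carry these signals were examined next, as 7 lists with 72 genes in the table, of which 61 were tested. Of these, 1 rose and 4 fell, 8.20% called beside 5.46% of all genes tested, and the median log2 difference was 0.043 beside 0.066. The lists were opioid peptides and their enzymes, endocannabinoid genes, catecholamine handling, other adrenergic receptors, Gi/o alpha subunits, Gi/o effectors, and desensitization and trafficking.

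Opioid ligand precursors were scarce in these ganglia. Penk, the enkephalin precursor, was at 22 to 33 reads per wild type and 23 to 81 per mutant, with mutant 4 at 81, and its log2 difference was 0.61 (SE 0.29; limma adjusted p = 0.237), or 0.30 without that library. Pnoc, the nociceptin precursor, was at 1 to 8 reads per wild type and 4 to 6 per mutant, at a log2 difference of 0.47 (SE 0.39; limma adjusted p = 0.530), and 0.20 to 0.71 with 1 sample left out, the ends being without wild type 1 and wild type 8. Pdyn and Pomc, the dynorphin and endorphin precursors, were below the filter with at most 6 and 3 reads per library.

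Among the 7 tested genes of the opioid peptide list, Mme rose and Cpe fell, and the median log2 difference was 0.42. Mme encodes neprilysin, a cell surface peptidase that cleaves enkephalins and other peptides, and lies on chromosome 3 at 63241537 to 63386030. Wild types 1, 3, 4 and 8 stood at 3.90, 3.83, 4.05 and 4.30 log2 CPM and mutants 1 to 4, with no overlap, at 4.66, 4.78, 4.70 and 4.89. The difference was 0.74 (SE 0.11; limma adjusted p = 0.00210), from 16.1 ± 2.47 to 26.8 ± 1.98 CPM (SD, n = 4 each), and it was called in all 23 alternatives. Myelinating Schwann cell markers gave sums of 2432 to 3186 CPM in wild types and 2874 to 3454 CPM in mutants, with 2 of 7 called higher, and satellite glia markers to 1804 to 2206 and 1989 to 2794 CPM, with 1 of 6 called higher. Fibroblast markers had 1 of 6 called higher (Dcn) and a median log2 difference of 0.30, and immune markers 1 of 7 called higher (Cd163) and a median of 0.41. The part of these cell types in the Mme value was not tested.

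Cpe encodes carboxypeptidase E, which trims neuropeptide precursors, and lies on chromosome 8 at 64592542 to 64693054. It fell, at a log2 difference of -0.30 (SE 0.068; limma adjusted p = 0.0203), from 558 ± 33.0 to 454 ± 41.5 CPM (SD, n = 4 each), with 4 of 4 mutants below all wild types. The call was lost in 4 of 23 alternatives, including the subtraction of pan-neuronal content (-0.25; adjusted p = 0.0794) and the fit without wild type 1 (-0.27; adjusted p = 0.0769) or wild type 3 (-0.29; adjusted p = 0.0533).

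No endocannabinoid gene was called by limma among 10 tested, with 3 at an unadjusted p under 0.05, and the list's median log2 difference was 0.081. Voom on the recovered reads, the other test run, called 0 of them. Dagla, a synthase of an endocannabinoid other than anandamide that acts on Cnr1, had a log2 difference of -0.26 (SE 0.085; limma adjusted p = 0.0948). Abhd6, a hydrolase that degrades the same lipid, had 0.25 (SE 0.090; limma adjusted p = 0.118), with 4 of 4 mutants above all wild types. The groups overlapped for Dagla. Dagla was called with median centring (-0.35; adjusted p = 0.0336) and with the GC trend removed (-0.31; adjusted p = 0.0404). The second cannabinoid receptor, Cnr2, was below the filter with 0 to 8 reads.

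On the adrenergic side, no gene was called among 5 tested for catecholamine handling and 5 other adrenergic receptors, where limma gave 0 and 1 with an unadjusted p under 0.05 and voom called 0. Th, the rate-limiting enzyme of catecholamine synthesis and a marker of C low-threshold mechanoreceptors, averaged 131 ± 17.7 CPM in wild types and 144 ± 9.37 CPM in mutants (SD, n = 4 each; limma adjusted p = 0.396). Dbh, the enzyme that makes noradrenaline, was at 0 to 3 reads per wild type and 0 to 1 per mutant. Maoa, which breaks down monoamines, had a log2 difference of -0.14 (SE 0.069; limma adjusted p = 0.265), with 4 of 4 mutants below all wild types. It was called in 1 of 23 alternatives, with the GC trend removed (-0.25; limma adjusted p = 0.0397). Adra1a and Adra1b, receptors of the alpha-1 class, had log2 differences of 0.61 (SE 0.24; limma adjusted p = 0.153) and 0.42 (SE 0.26; limma adjusted p = 0.381) from 8 to 38 reads. For Adra1a 4 of 4 mutants were above all wild types, and for Adra1b the groups overlapped. Without wild type 1 the value for Adra1a was 0.40, and that for Adra1b was 0.23 without wild type 3 and 0.24 without mutant 1.

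Of the 5 Gi/o alpha subunits, Gnao1 fell. It encodes the alpha subunit of Go, the abundant G protein of neurons that couples these receptors to calcium channels, and lies on chromosome 8 at 93809966 to 93969388, where it shares 284 exonic bases with an antisense gene. The wild types lay between 9.95 and 10.04 log2 CPM, and mutants 1 to 4 measured 9.51, 9.56, 9.58 and 9.13. All mutants were below all wild types, and mutant 4 was the lowest. The level went from 1014 ± 29.0 to 701 ± 95.9 CPM (SD, n = 4 each), a log2 difference of -0.54 (SE 0.083; limma adjusted p = 0.00210). It was called in 22 of 23 alternatives, at -0.49 with pan-neuronal content subtracted (adjusted p = 0.00999), and not without the mean-variance trend (adjusted p = 0.0648). For the other members log2 differences were -0.16 for Gnai2 (limma adjusted p = 0.0750), -0.044 for Gnaz, -0.034 for Gnai3 and 0.093 for Gnai1, none of them called. All mutants were below all wild types for Gnai2, and the groups overlapped for Gnaz, Gnai3 and Gnai1.

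No effector gene was called by limma or by voom among 14 tested, with 3 at an unadjusted p under 0.05 in limma and a median log2 difference of 0.024. Cacna1b, the pore of the N-type calcium channel that these receptors inhibit, had a log2 difference of -0.25 (SE 0.092; limma adjusted p = 0.130), from 368 ± 28.3 to 312 ± 45.4 CPM (SD, n = 4 each), and -0.14 without mutant 4. Of the inwardly rectifying channel subunits, Kcnj3 had -0.11 (limma adjusted p = 0.513), Kcnj6 -0.29 (limma adjusted p = 0.489) and Kcnj9 0.083 (limma adjusted p = 0.869), and Kcnj5 had 0 to 1 reads. The sign of Kcnj9 turned with median centring (-0.0088) and quantile normalization (-0.080). Adcy5, an adenylyl cyclase, had -0.22 (SE 0.075; limma adjusted p = 0.102), and it was called in 3 of 23 alternatives, with median centring (-0.31; adjusted p = 0.0277), with the GC trend removed (-0.27; 0.0392) and without wild type 8 (-0.28; 0.0493).

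Of 15 tested genes for desensitization and trafficking, Adrbk1 and Rgs4 fell. An unadjusted p under 0.05 in limma was found for 6 of the 15, beside 21.3% of all genes tested. Those without a call were Adrbk2 (-0.23), Grk5 (-0.29), Wls (0.28) and Rgs9 (0.60). All mutants were below all wild types for Adrbk2 and Grk5, and the groups overlapped for Wls and Rgs9. Adrbk1 encodes the G protein-coupled receptor kinase that phosphorylates active receptors before arrestin binds, and went from 333 ± 20.3 to 268 ± 22.8 CPM (SD, n = 4 each), a log2 difference of -0.31 (SE 0.067; limma adjusted p = 0.0144). It lost its call with pan-neuronal content subtracted (-0.26; adjusted p = 0.0552), without the mean-variance trend (adjusted p = 0.116), without wild type 1 (-0.28; 0.0576) and without mutant 1 (-0.29; 0.0511). Rgs4, which speeds the switching off of Gi/o alpha subunits, went from 1319 ± 57.3 to 1068 ± 81.8 CPM (SD, n = 4 each), a log2 difference of -0.31 (SE 0.062; limma adjusted p = 0.0115), and lost its call without the mean-variance trend alone (adjusted p = 0.104). In both genes 4 of 4 mutants were below all wild types. The arrestins Arrb1 and Arrb2 had log2 differences of -0.067 and 0.0011 and were not called, and were named after their values were seen.

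**Figure D3:**
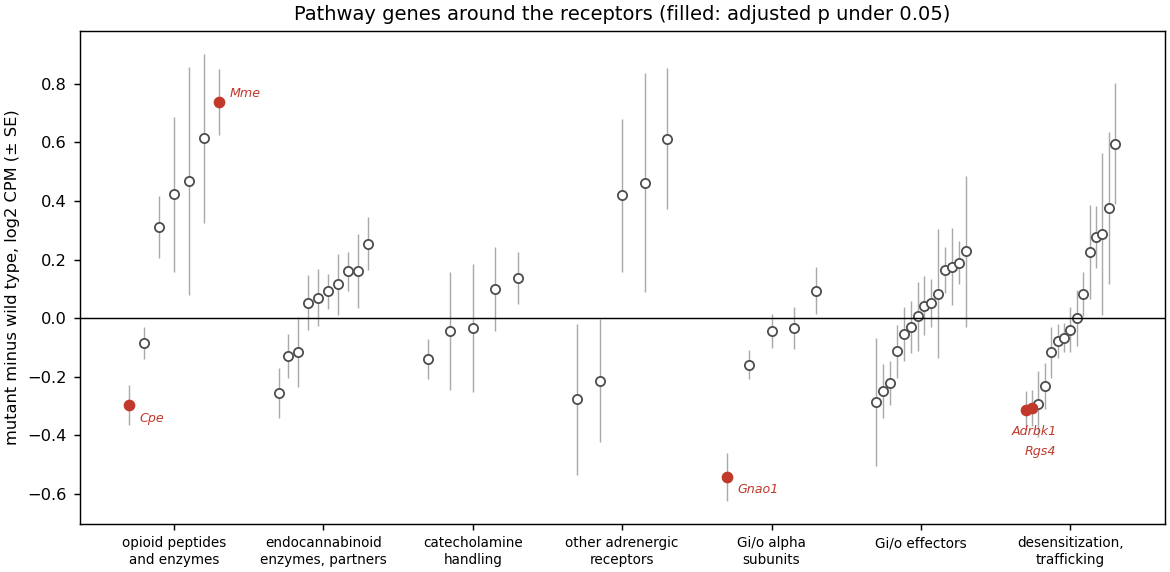
Mutant minus wild type difference in moderated log2 CPM with its SE (vertical axis) for the 61 tested genes of 7 lists (horizontal axis), sorted within each list; filled red points have an adjusted p under 0.05. Mme at 0.74 is the called gene above 0, and Cpe, Gnao1, Adrbk1 and Rgs4 are the called genes below it.

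**Figure D4:**
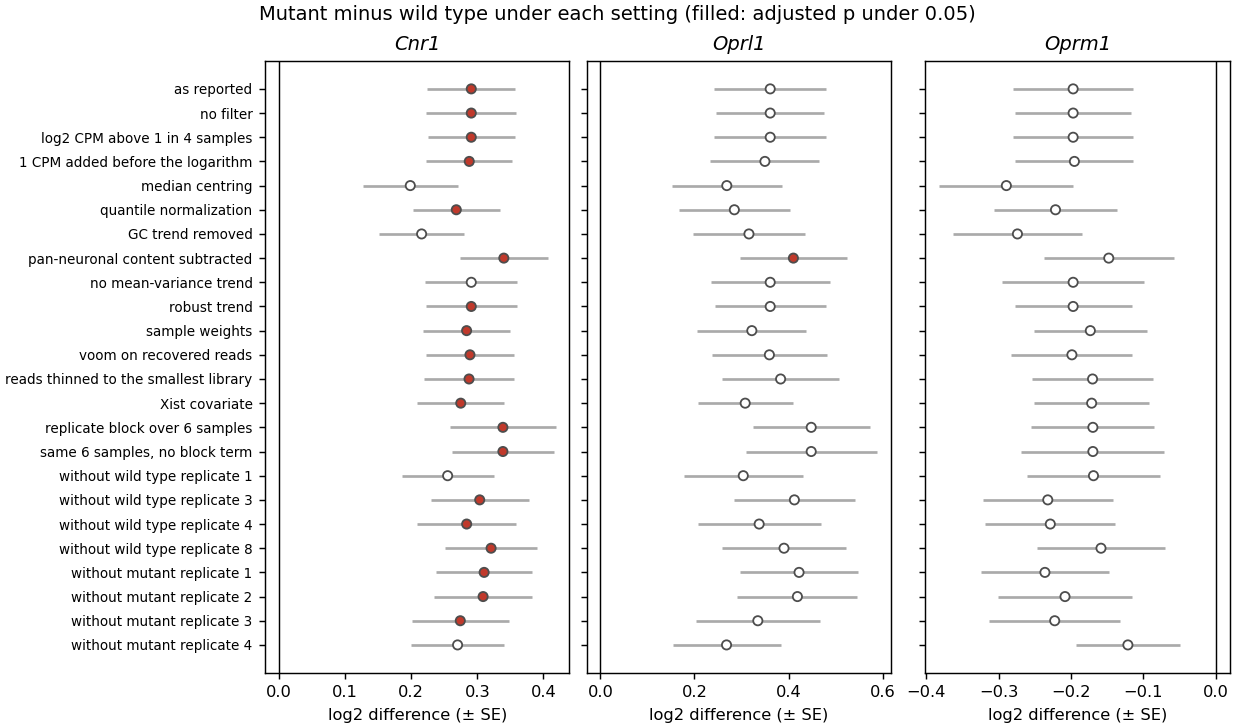
Mutant minus wild type log2 difference with its SE (horizontal axes) for Cnr1, Oprl1 and Oprm1 under the reported setting and the 23 alternatives (rows); filled points have an adjusted p under 0.05. Every value of Cnr1 and Oprl1 is above 0 and every value of Oprm1 below it, and the call is present in 18 alternatives for Cnr1, 1 for Oprl1 and 0 for Oprm1.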

How the data were processed

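Moderated log2 CPM values of 8 samples were deposited by the authors in 1 table, and the GC percent of each gene was deposited beside them, per the file headers. Salmon 0.11.1, DESeq2 and the build mm9 are named, with no role, per the submitters' processing notes. Of 41422 lines, 40800 identifiers were distinct, and repeats carried the same values. After the shared floor of -1.79 was removed on the linear scale, 100.0% of values up to 1000 reads were whole reads within 0.05 reads, with a prior averaging 2 reads, and may be rounded estimates, since how reads were counted is not given in the sources used here; listed rows hold at least 99.9% of each library. Genotypes were compared with limma 3.58.1 in R 4.3.3 (mean-variance trend, two-sided, no covariate, Benjamini-Hochberg over 15030 genes), calling an adjusted p under 0.05. Single values also had exact permutation tests over 70 assignments in Python 3.11.15 with scipy 1.17.1. Gene positions and exon lengths come from GENCODE M21 (GRCm38), not the authors' build. Members, lists and alternatives were chosen with earlier results of these data known. Named are the members, called list genes, the 2 lowest p where none was called, ligand precursors, potassium channel subunits and Cacna1b, and the 3 genes most like a member. Cnr2, Dbh, the arrestins, Adrbk2, Grk5, Wls, Rgs9, the other Gi/o alpha subunits and single marker genes were named after their values were seen.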

Additional observations from a re-analysis of the deposited data

Results flagged for a closer look

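Over 59 groups of 4 values for the receptors, Tmem184b and the named pathway genes, 2 held 1 sample distant from the rest, and about 2.95 such groups arise by chance. In Adra2a, mutant 3 was at 2.94 log2 CPM, from 48 reads, against 3.45 to 3.52 in the other mutants, and without it the log2 difference was 0.25 in place of 0.11. In Gnao1, mutant 4 was at 9.13 log2 CPM, from 3909 reads, against 9.51 to 9.58 in the other mutants, and without it the difference was -0.44 in place of -0.54 (limma adjusted p = 0.00027).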

How the results depend on the processing

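Of the receptors, Oprm1, Oprk1, Adra2b and Adra2c kept their direction and stayed uncalled in all 23 alternatives. Cnr1 was called in 18. The call was lost with median centring (log2 difference 0.20), with the GC trend removed (0.22) and without the mean-variance trend (0.29). It was also lost in the fits without wild type 1 and without mutant 4. Oprl1 was called in 1, at 0.41 with pan-neuronal content subtracted. With 1 sample left out, Cnr1 ranged from 0.26 to 0.32 and Oprd1 from -0.14 to 0.0084. The cause was not tested. Over all genes, calls in the higher and lower direction numbered 204 and 706 with median centring, 257 and 604 with the GC trend removed, 680 and 254 with pan-neuronal content subtracted, 67 and 75 without the trend, and 876 and 612 at an adjusted p under 0.1. Quantile normalization gave 271 higher and 422 lower. With 1 sample left out at a time, 171 to 571 calls were higher and 224 to 426 lower. Samples with a shared label number (1, 3 and 4) had correlations of 0.081, 0.041 and 0.058 between their deviations from the genotype means. Whether the numbers pair the samples was not tested. The replicate block over these 6 samples gave 320 higher and 337 lower calls, against 176 and 263 with no block term; Adra2a was at -0.031 in both and Cnr1 at 0.34 in the block. Kcnj9 was at -0.0088 with median centring, -0.080 with quantile normalization, and between -0.018 and 0.18 with 1 sample left out. Adra2b had 5 to 18 reads per library and Oprk1 23 to 47, and counting error was not separated from spread between mice.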
